A study of Mus musculus with 9 samples.

Results

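The genes described here are 10 genes of the G1 to S phase transition, namely the D cyclins Ccnd1, Ccnd2 and Ccnd3, the E cyclins Ccne1 and Ccne2, the cyclin-dependent kinases Cdk2, Cdk4 and Cdk6, and the transcription factors E2f1 and E2f2. They were listed by name, with no threshold on a measured value but with earlier results of these data known, and all 10 were found among 21887 protein-coding genes of the RefSeq annotation of GRCm38.p6 on chromosomes 1 to 19, X and Y. Chromatin came from thymus of C57BL/6J mice and is labelled as MYCN-driven T cell lymphoma. Each of 7 antibodies (against EZH2, SUZ12, H3K27me3, N-MYC, p300, H3K27ac and H3K4me3) had 1 library made by ChIPmentation, in which a transposase loads sequencing adapters onto the precipitated chromatin, and the 2 input libraries were not analysed here. All libraries carry the same strain, tissue and cell type labels. The MYCN allele, its promoter, the age of the mice and the animal behind each immunoprecipitation are not given in the sources used here, and there is no normal thymus among the samples. With 1 library per antibody, no value below has a replicate error and no test was possible. Differences between genes describe these deposited peak lists.

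Cells enter S phase when D cyclins activate CDK4 and CDK6, and E cyclins then activate CDK2. These kinases phosphorylate the retinoblastoma protein, which releases E2F transcription factors to switch on genes for DNA synthesis, the E cyclins among them. Thymocytes depend on cyclin D3 and CDK6 for their expansion, MYC proteins bind a CACGTG sequence called the E-box, and EZH2 and SUZ12 are subunits of Polycomb repressive complex 2, which deposits H3K27me3.

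To set promoter sequence beside the N-MYC calls, the RefSeq windows from 250 bases before to 50 bases after each annotated start (GRCm38.p6) were searched for CACGTG, which reads the same on both strands, and for the E2F forms TTTGGCGC, TTTGCCGC, TTTCGCGC and TTTCCCGC on both strands. The table held 7 of the 10 genes, with 9 starts, and had no entry for Ccnd1, Ccnd2 and Ccne2. Cdk4 had 4 E-boxes, which begin 172, 118, 98 and 11 bases before its start, and all lay inside its N-MYC peak. Among 21263 protein-coding windows of this length, 7.84% held at least 1 CACGTG and 5 windows (0.0235%) held at least 4. Cdk6 had 1 E-box, 220 bases before the start that the table gives for it, also inside an N-MYC peak. An E2F form was found in 2 of the 9 windows, 1 of Cdk2 and 1 of E2f2, against 2.85% of all windows. GCGGGAAA, the reverse complement of TTTCCCGC, began 140 bases before the start of Cdk2. TTTGGCGC began 39 bases after the start of E2f2. The windows of Ccnd3, Ccne1, Cdk2, E2f1 and E2f2 held no CACGTG, and all of these but E2f2 had an N-MYC peak at the start. The search did not cover these peaks in full. That of Cdk2 lay 108 to 380 bp inside the gene, outside the window. The peaks of Ccnd3 (145 bp before to 244 bp after the start) and Ccne1 (832 bp before to 119 bp after) were searched only in part. Whether these peaks hold an E-box elsewhere was not tested. The E2f1 window lies at a start 466 bp inside the gene end used for the peaks, so the bases before that end were not searched. A match is a description of the letters and shows no binding. The bases before the starts of Cdk4, Cdk2 and E2f2 are shown because they hold 4, 0 and 0 E-boxes, together with the Cdk6 site. Matches are in capitals (CACGTG in Cdk4 and Cdk6, the E2F form in Cdk2), and E2f2 has none before its start.
Cdk4, chr10:127063285-127063534, plus strand: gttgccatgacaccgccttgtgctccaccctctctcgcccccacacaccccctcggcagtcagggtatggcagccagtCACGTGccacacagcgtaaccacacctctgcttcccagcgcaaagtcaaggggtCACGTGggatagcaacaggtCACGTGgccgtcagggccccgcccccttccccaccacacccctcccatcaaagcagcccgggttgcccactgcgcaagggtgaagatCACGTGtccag
Cdk6 site, chr5:3343663-3343688, plus strand: tctgcggcccCACGTGggtgaacccc
Cdk2, chr10:128705052-128705301, minus strand: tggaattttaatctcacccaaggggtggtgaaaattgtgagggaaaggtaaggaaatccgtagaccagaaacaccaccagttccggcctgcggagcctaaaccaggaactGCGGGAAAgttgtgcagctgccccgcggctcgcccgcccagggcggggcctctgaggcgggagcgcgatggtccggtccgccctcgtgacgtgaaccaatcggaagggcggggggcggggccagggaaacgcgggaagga
E2f2, chr4:136172024-136172273, plus strand: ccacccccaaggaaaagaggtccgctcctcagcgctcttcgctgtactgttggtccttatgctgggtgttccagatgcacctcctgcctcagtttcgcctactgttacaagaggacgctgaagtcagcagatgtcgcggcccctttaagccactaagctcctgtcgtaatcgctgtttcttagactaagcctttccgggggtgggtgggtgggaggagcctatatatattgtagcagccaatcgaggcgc

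The lists ran from 9798 peaks for N-MYC to 123056 for H3K27me3, and the number of reads behind each is not given in the sources used here. Of 9 T-cell marker genes that could be read, all had H3K4me3, H3K27ac and p300 peaks within 1 kb of the start (Cd3d, Cd3e, Cd3g, Cd247, Lck, Zap70, Lat, Tcf7 and Bcl11b). N-MYC was called at 5 of these 9 and not at Cd3d, Cd3e, Cd3g or Cd247. No p300 or N-MYC peak was called at the 3 B-cell, 3 myeloid, 5 thymic epithelial and 1 fibroblast marker genes read. Active marks appeared at a few of these. H3K4me3 fold enrichments were weak at Cd79a (4.74) and Cebpa (6.81). At the epithelial gene Epcam H3K4me3 was 19.3, within the range of the T-cell markers, 14.2 to 41.8. The part of other cells in the values below was not tested.

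EZH2 was called within 1 kb of the start of all 10 genes, most weakly at Ccnd2, whose call was lost with a window of 0.5 kb, at a q-value of at most 1e-05 or with lists of equal length, while the marks around it split them into a single Polycomb-covered gene, Ccnd1, and 9 genes with active promoter marks. H3K4me3, H3K27ac and p300 peaks were each called at the same 9 genes, every one but Ccnd1. N-MYC was called at 8, the exceptions being Ccnd1 and E2f2. SUZ12 was called at Ccnd1 alone, and H3K27me3 at Ccnd1 and Ccnd2. As background, EZH2 was called at 43.1% of 17492 protein-coding gene starts, H3K4me3 at 49.6%, H3K27ac at 49.8%, p300 at 38.3%, N-MYC at 31.6%, H3K27me3 at 23.8% and SUZ12 at 12.2%. EZH2, N-MYC, p300, H3K27ac and H3K4me3 were all called at 8 of the 10 genes and at 24.7% of all starts. At 7 of them neither SUZ12 nor H3K27me3 was called, a combination found at 23.4% of all starts. Fold enrichments are the authors' own linear values for each peak over background, each list ends at a q-value of about 0.01, and where no peak is given none was listed at that place. These are bulk chromatin samples, in which fewer cells carrying a mark and less of it per cell cannot be told apart. EZH2 and H3K4me3 were called together at 9 of the 10 genes and at 35.7% of all starts. Over the gene bodies, EZH2 and H3K4me3 peaks were called in all 10 genes (46.9% and 55.0% of all genes), H3K27ac and p300 in 9 (58.5% and 43.2%), N-MYC in 8 (36.2%), and SUZ12 and H3K27me3 in Ccnd1 alone (13.9% and 29.0%).

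**Figure D1:**
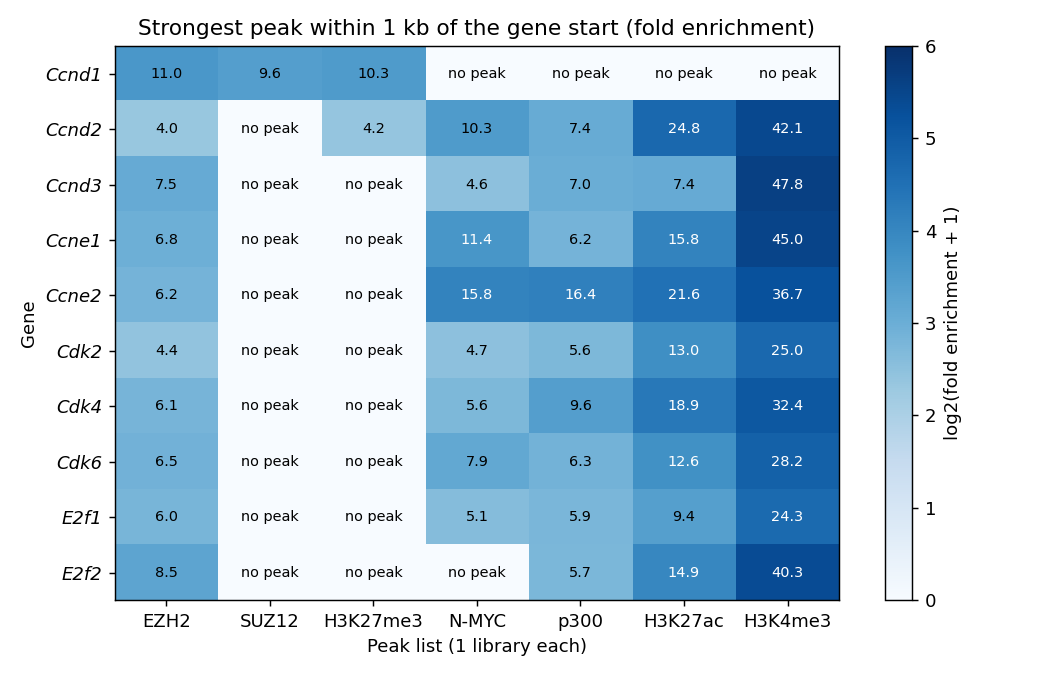
Fold enrichment of the strongest peak within 1 kb of the start of each gene (rows) in each of 7 peak lists (columns, 1 library each), coloured by log2(fold enrichment + 1). Ccnd1 has the row with EZH2, SUZ12 and H3K27me3 and no active mark, and the other 9 genes have H3K4me3 values from 24.3 to 47.8.

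The levels differed within each list. The fold enrichment of EZH2 at the start was 4.04 at Ccnd2, 4.40 at Cdk2, 6.00 at E2f1, 6.11 at Cdk4, 6.24 at Ccne2, 6.47 at Cdk6, 6.78 at Ccne1, 7.51 at Ccnd3, 8.48 at E2f2 and 11.0 at Ccnd1. Its median over the 10 genes was 6.35, against 5.81 over all starts with an EZH2 peak. The highest value belonged to the gene without active marks, and the next to the active gene without N-MYC. Among the further pathway genes read below, those with p300, H3K27ac and H3K4me3 but no N-MYC had lower EZH2 values. These were 6.57 at E2f8, 5.76 at Cdc25b, 4.85 at Ccnb2 and 2.85 at Cdk1. H3K4me3 ran from 24.3 at E2f1 to 47.8 at Ccnd3, with a median of 36.7 at the 9 genes against 26.6 over all starts with such a peak. The median of H3K27ac was 14.9 against 12.4, that of p300 6.29 against 5.40, and that of N-MYC 6.75 over 8 genes against 6.02. These medians cover only genes with a call, and without replicates neighbouring values in each order cannot be told apart.

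The D cyclins are the regulatory subunits that activate CDK4 and CDK6, and each of the 3 genes had a chromatin state of its own. Ccnd1 lay under a Polycomb domain, Ccnd2 had an active start with a Polycomb domain just upstream, and Ccnd3 had active marks alone. EZH2 was called at all 3 starts, with fold enrichments of 11.0, 4.04 and 7.51, of which that at Ccnd2 did not survive the stricter settings named above. The strand of Ccnd1 and Ccnd2, which fixes their start, was taken from general knowledge of the mouse genome. No peak of the 7 lists reached within 1 kb of the other end of either gene.

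Ccnd1, which encodes cyclin D1, spans 144929931 to 144939831 on chromosome 7. Its EZH2 peak reached from 3697 bp before to 2622 bp after the start, and its fold enrichment of 11.0 was above that at 95.8% of starts with an EZH2 peak. The SUZ12 peak covered nearly the same stretch, from 4221 bp before to 2602 bp after the start, with a fold enrichment of 9.65, and the summits of both peaks lay 139 bp apart. The H3K27me3 peak was 12.0 kb wide, wider than 99.4% of peaks in its list. Its fold enrichment of 10.3 was above that at 57.1% of starts with such a peak. EZH2, SUZ12 and H3K27me3 without any of the 4 active lists were found at 6.81% of all starts. Over the gene body, H3K27me3 peaks covered 48.5% and EZH2 peaks 26.5% of its length, and no p300, N-MYC or H3K27ac peak was called there.

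Traces of activating features were called inside that domain. A 273 bp N-MYC peak of fold enrichment 5.98 lay 3520 to 3792 bp upstream of the Ccnd1 start, within the SUZ12 and H3K27me3 peaks and over the edge of the EZH2 peak. A 248 bp H3K4me3 peak of fold enrichment 3.56 lay 1532 to 1779 bp inside the gene, and only 8.72% of H3K4me3 peaks were narrower. The nearest H3K27ac peak to the start was 13.0 kb away, past the finish of the gene, and the nearest p300 peak was 24.6 kb away.

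Ccnd2, which encodes cyclin D2, spans 127125162 to 127152188 on chromosome 6. One H3K4me3 peak of fold enrichment 42.1 ran from 3571 bp before to 4198 bp after the start and was wider than 99.8% of its list. The H3K27ac peak over the same stretch had a fold enrichment of 24.8, the highest among the 10 gene starts, and was above that at 94.3% of starts with such a peak. N-MYC had a fold enrichment of 10.3 in a 1.75 kb peak over the start, with a summit 93 bp upstream of it, and p300 had 7.38 in a peak of 4.11 kb. Ccnd2 was thus the D cyclin with the highest N-MYC, p300 and H3K27ac values at its start.

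Upstream of Ccnd2 the Polycomb lists overlapped the span of these active peaks and reached beyond it. Further N-MYC peaks of 5.45, 4.98 and 4.43 and p300 peaks of 5.27 and 4.28 lay between 1064 and 3586 bp before the start. The largest H3K27me3 peak, of fold enrichment 10.9, lay 4810 to 8466 bp before the start, and a second, of 5.89, reached to 3081 bp, into the H3K4me3 and H3K27ac peaks. Another small one of 4.20, 563 to 878 bp before the start, was the peak that reached the 1 kb window. SUZ12 had 8 peaks between 1890 and 6924 bp before the start, with fold enrichments from 2.71 to 4.48, and none inside the gene. EZH2 fell into 2 groups of 3 peaks with a gap over the start itself. Those upstream lay between 2578 and 5224 bp, on SUZ12 and H3K27me3 peaks, with fold enrichments of 4.49, 4.44 and 5.51. The last of these, the nearest to the start, also overlapped H3K4me3, H3K27ac, p300 and N-MYC peaks. Those inside the gene lay between 560 and 3009 bp, on H3K4me3, H3K27ac and p300 but no SUZ12 or H3K27me3 peaks, and had fold enrichments of 4.04, 7.84 and 3.83. The long non-coding RNA gene 9330179D12Rik also spans this start, and the peaks cannot be assigned between the 2 genes.

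**Figure D2:**
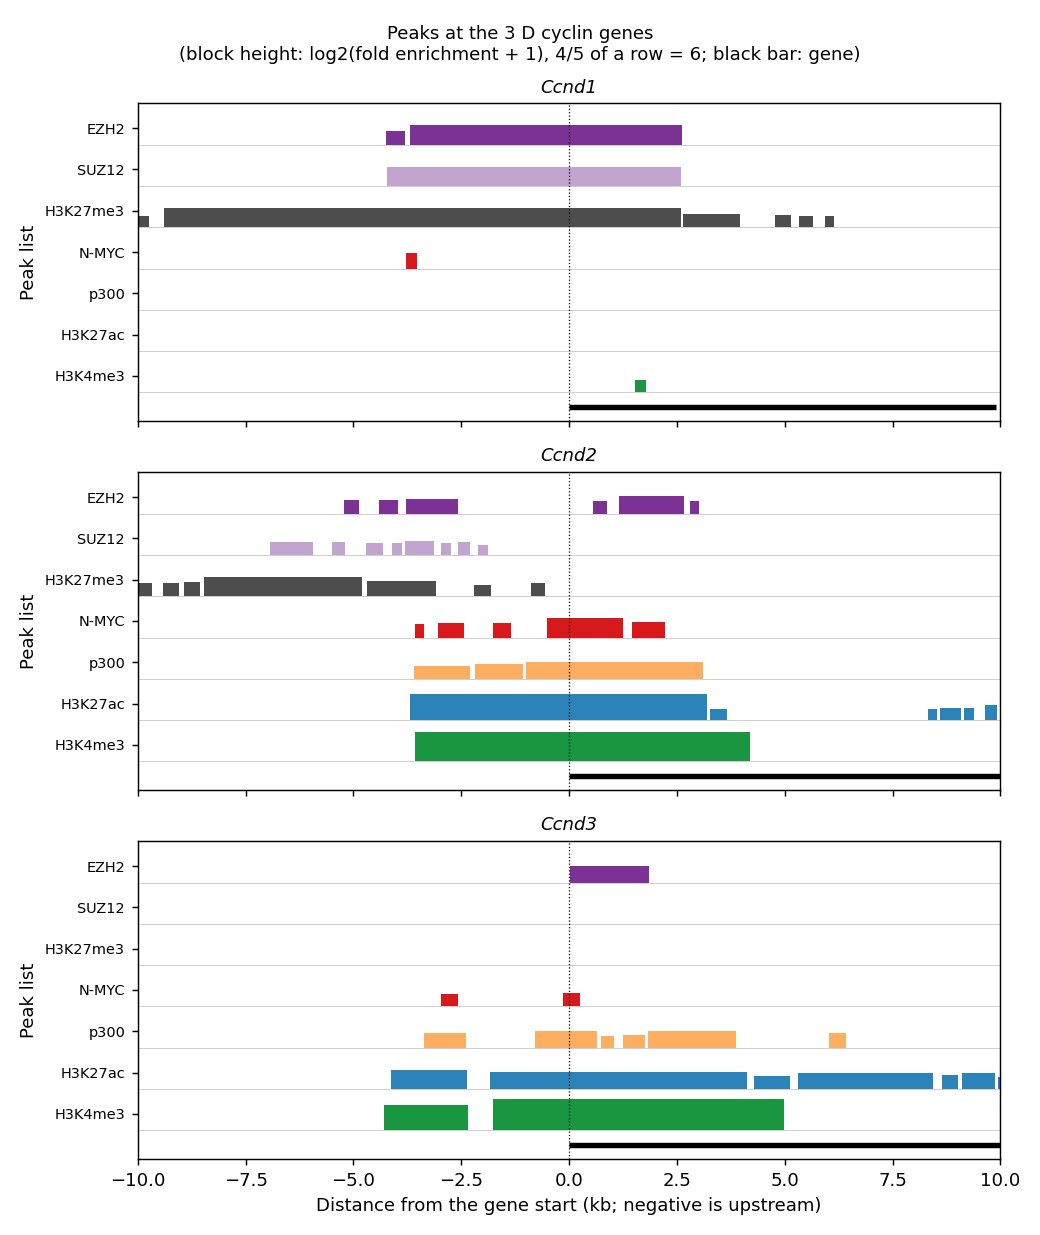
Peaks of 7 lists from 10 kb before to 10 kb after the start of Ccnd1, Ccnd2 and Ccnd3, plotted by distance from the start in kb, with block height as log2(fold enrichment + 1) and the gene as a black bar. The upper panel shows EZH2, SUZ12 and H3K27me3 over the Ccnd1 start, the middle panel shows active marks at Ccnd2 with Polycomb peaks to the left, and the lower panel shows no SUZ12 or H3K27me3 peak.

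Ccnd3, which encodes cyclin D3, spans 47505051 to 47599689 on chromosome 17 and had no SUZ12 or H3K27me3 peak near its start, the nearest lying 66.6 and 65.6 kb away. Its H3K4me3 fold enrichment of 47.8 was the highest of the 10 genes and above that at 99.5% of starts with such a peak. The EZH2 peak of 7.51 began 30 bp and ended 1844 bp inside the gene. N-MYC had its lowest value of the 8 genes here, 4.62 in a 390 bp peak, and H3K27ac at the start was also the lowest of the 9, at 7.42, although p300 reached 7.03. The table gives Ccnd3 a second start 88416 bp downstream, which carried H3K4me3 (28.9), H3K27ac (7.71) and p300 (5.27) peaks and neither EZH2 nor N-MYC.

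Over the gene body, the share of length under H3K27ac peaks was highest at Ccnd3. By fold enrichment the order stayed as at the start, with a strongest peak of 24.8 at Ccnd2 and 16.0 at Ccnd3. Ccnd3 had 52 H3K27ac peaks that covered 52.7 kb, or 55.7% of its length, against 19.3% at Ccnd2, none at Ccnd1 and a median of 2.44% over all genes read. The strongest, of fold enrichment 16.0, lay 14539 to 20759 bp inside the gene, and the second strongest, of 12.9, lay 25403 to 31085 bp inside it. The latter held an N-MYC peak of 5.15 and a p300 peak of 4.65 whose summits were 26690 and 26666 bp from the start. No EZH2 or H3K4me3 peak was called there. Parts of the Ccnd3 span are shared with the RNA gene Gm41590 and, at the finish, with Bysl.

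Profiles over the 7 start values were compared as Euclidean distances of log2(fold enrichment + 1), with 0 where no peak was called, so that a missing call weighs heavily. Ccnd2 and Ccnd3 were 3.14 apart, Ccnd1 and Ccnd3 8.96, and Ccnd1 and Ccnd2 9.36. The genes most like Ccnd1 were Wnt3 and Wnt9b, with identical values, and the potassium channel gene Kcnc4, at distances of 0.065, 0.065 and 0.096. Those most like Ccnd2 were Obi1 (0.837), Arrdc3 (0.894) and Usp31 (1.09), which also had an H3K27me3 peak beside the 5 others and no SUZ12. Those most like Ccnd3 were Desi1 (0.366), Eloa (0.415) and Stk4 (0.449). Every member that is not a D cyclin was nearer to Ccnd3 than Ccnd2 was, from E2f1 at 1.06 to E2f2 at 2.68. The distance of Ccnd2 rests in part on its H3K27me3 and EZH2 calls. Both were lost with a window of 0.5 kb or lists of equal length, and distances without them were not computed. Of all genes compared, 28.7% were nearer to Ccnd3 than Ccnd2 was.

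The E cyclins, which activate CDK2, carried the strongest N-MYC peaks of the 10 genes. Ccne2 spans 11190433 to 11204779 on chromosome 4. Its N-MYC fold enrichment was 15.8, and 51 of the 5536 starts with an N-MYC peak had a higher one. Its p300 fold enrichment was 16.4, exceeded at 2 of the 6701 starts with a p300 peak. H3K27ac reached 21.6 and H3K4me3 36.7, while EZH2 was 6.24, near the middle of the 10 genes. The N-MYC and p300 summits lay 743 and 838 bp inside the annotated gene. The strand of Ccne2 was taken from general knowledge, the RNA gene A630034I12Rik also reaches over this start, and no peak lay within 1 kb of the other end.

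Ccne1 spans 38097984 to 38107490 on chromosome 7. N-MYC had a fold enrichment of 11.4 in a peak from 832 bp before to 119 bp after the start, and p300 had 6.20. The H3K4me3 peak of 45.0 was above that at 98.4% of starts with such a peak. H3K27ac was split into a peak of 15.8 upstream and one of 7.73 inside the gene, which end and begin 85 and 13 bp before the start. The EZH2 peak of 6.78 lay mostly inside the gene, from 54 bp before to 827 bp after the start. Ccne2 thus had the higher N-MYC, p300 and H3K27ac values and Ccne1 the higher H3K4me3 and EZH2 values.

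Among the kinase genes, Cdk4 and Cdk6 encode the partners of D cyclins and Cdk2 that of the E cyclins, and all 3 had EZH2, N-MYC, p300, H3K27ac and H3K4me3 without SUZ12 or H3K27me3 at the start. Cdk4 spans 127063535 to 127067288 on chromosome 10. The N-MYC peak that holds its 4 E-boxes had a fold enrichment of 5.60, above that at 42.2% of starts with an N-MYC peak, and its summit lay 224 bp inside the gene, 232 bp from the nearest E-box. By contrast the p300 value of 9.58 was above that at 96.5% of starts with a p300 peak, and its summit lay 104 bp upstream, among the E-boxes. The H3K27ac and H3K4me3 peaks of Cdk4 had fold enrichments of 18.9 and 32.4. EZH2 was 6.11, with a summit 1 bp from that of H3K4me3.

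Polycomb peaks flanked Cdk4 on both sides, at its neighbours. The strongest upstream were H3K27me3 peaks of 6.07 and 4.26 and SUZ12 peaks of 4.48 and 4.27, between 2892 and 5141 bp from the start and over or next to Marchf9. Downstream, beyond the finish and over or just past Tspan31, H3K27me3 peaks of 8.41 and 9.55 and a SUZ12 peak of 3.39 lay between 5979 and 8325 bp from the Cdk4 start. Both stretches also held EZH2 and H3K4me3 peaks. The strongest were 7.16 and 25.3 upstream, where H3K27ac reached 4.15, and 6.06 and 5.69 downstream. None of these reached the gene, whose length was covered by H3K4me3 to 63.2% and by H3K27ac to 44.5%.

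Cdk6 spans 3341004 to 3531008 on chromosome 5, and its start was covered by broad peaks. The EZH2 peak was 4.55 kb wide (fold enrichment 6.47), the p300 peak 5.49 kb (6.29), and the H3K4me3 peak 7.33 kb (28.2). Each was wider than at least 97.4% of the peaks in its list. There were 2 N-MYC peaks there, of 7.91 and 7.07, and the second holds the E-box shown above, 772 bp from its summit. They reached from 200 to 2244 and from 2445 to 3726 bp inside the gene, and the second covers the start that the promoter table gives, 2889 bp inside. Gm36470, an RNA gene, also spans the annotated start.

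Deep inside Cdk6 lay the widest H3K27ac peak at any of these genes. It reached from 149570 to 165335 bp after the start, had a fold enrichment of 25.3 and was 15.8 kb wide, and 33 of the 87072 peaks in the list were wider. It held 7 p300 peaks, the strongest of fold enrichment 9.62, and an N-MYC peak of 6.29 whose summit was 156897 bp from the start and 39 bp from that of p300. No EZH2 or H3K4me3 peak was called in it. In all, 71 H3K27ac peaks covered 61.3 kb of Cdk6, or 32.2% of its length.

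**Figure D3:**
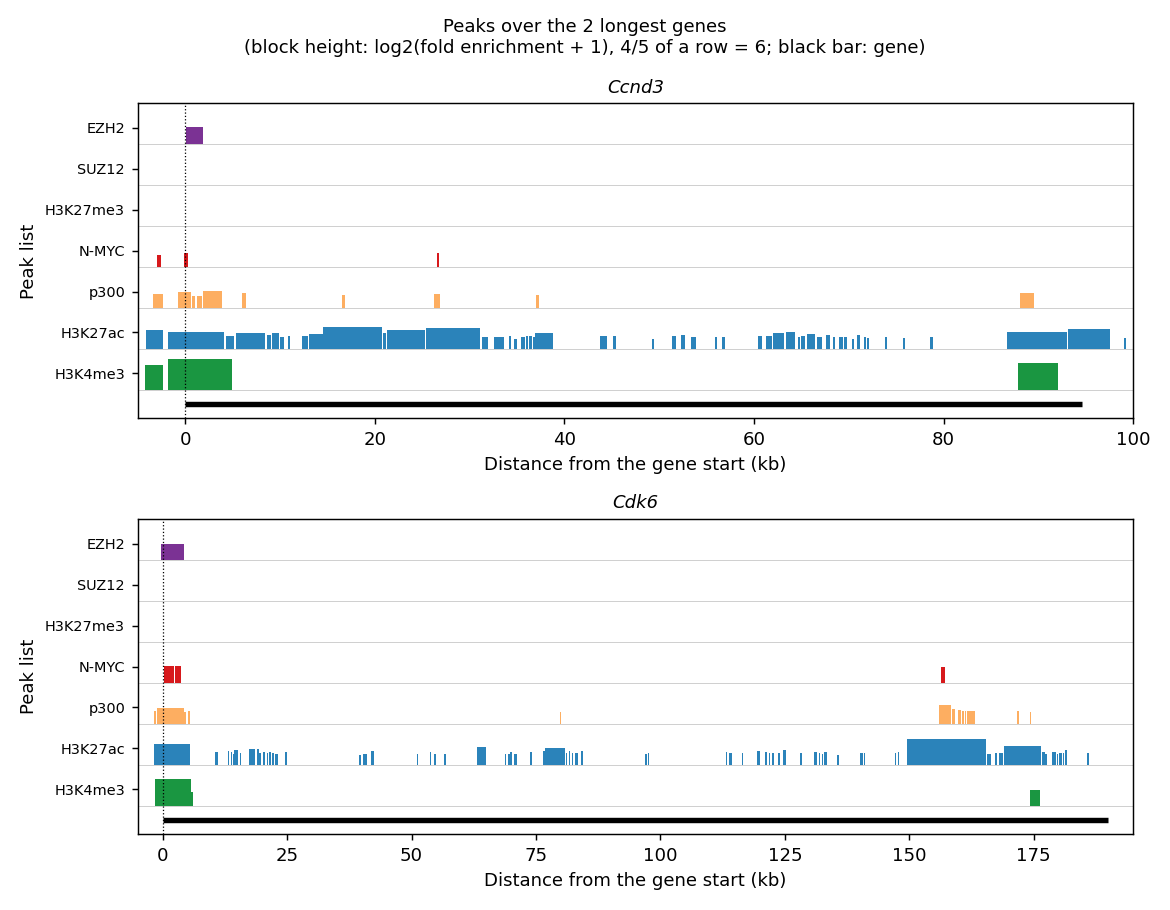
Peaks of 7 lists over Ccnd3 (94.6 kb) and Cdk6 (190.0 kb), plotted by distance from the gene start in kb, with block height as log2(fold enrichment + 1). EZH2 is called once in each gene, at the start, and a single H3K27ac peak deep inside each gene holds both p300 and N-MYC peaks, without EZH2.

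Cdk2 spans 128697938 to 128705051 on chromosome 10 and had the lowest or next to lowest values of the active genes in several lists. EZH2 was 4.40 in a 368 bp peak, N-MYC 4.68 in a 273 bp peak, p300 5.64, and H3K4me3 25.0, whereas H3K27ac was 13.0. The N-MYC peak lay 108 to 380 bp inside the gene and did not reach the E2F form shown above. RefSeq places all of Cdk2 within the span of Pmel, so the peaks cannot be assigned between these genes.

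E2f1 and E2f2 encode activator E2Fs, which bind the promoters of S-phase genes, and they differed in N-MYC. E2f1 spans 154559400 to 154569892 on chromosome 2. It had N-MYC (5.08, from 393 bp before to 634 bp after the start), p300 (5.86), H3K27ac (9.40) and EZH2 (6.00), and its H3K4me3 value of 24.3 was the lowest of the 9 genes. E2f2, on chromosome 4 from 136172274 to 136196057, had no N-MYC peak anywhere in the gene, and the nearest lay 23.9 kb upstream with a fold enrichment of 6.46. At E2f2 EZH2 was 8.48, H3K4me3 40.3 in a peak of 7.12 kb, H3K27ac 14.9 in a peak of 9.09 kb and p300 5.73. EZH2, p300, H3K27ac and H3K4me3 without N-MYC were found at 5.46% of all starts. H3K27ac covered 51.2% of the E2f2 length, next to Ccnd3 among the 10 genes. A second annotated start of E2f2, 8508 bp downstream, had 3 H3K27ac peaks within 1 kb, the strongest being the 9.09 kb peak that begins at the first start, an H3K4me3 peak of 4.33, and no EZH2, N-MYC or p300 peak.

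**Figure D4:**
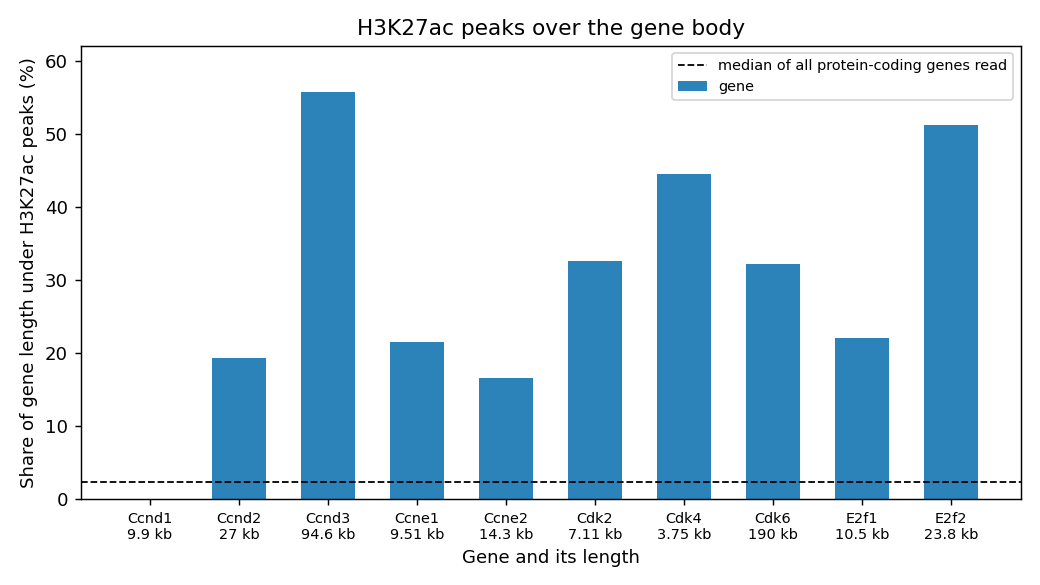
Share of each gene's length under H3K27ac peaks in percent, as bars, with each gene's length under its name and the median over all protein-coding genes read as a dashed line. Ccnd3 and E2f2 exceed 50%, and Ccnd1 has no H3K27ac peak.

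From 1 kb before the start to the finish, the 10 genes held 12 EZH2 peaks, all of which overlapped an H3K4me3 peak. Of all EZH2 peaks, including those away from gene starts, 52.7% did so. Of the 7533 background starts with an EZH2 peak, 6243 also had an H3K4me3 peak. At Ccnd1 the overlapping H3K4me3 peak was the one of 248 bp, whose summit lay 2852 bp from that of EZH2. Just outside these limits, EZH2 peaks lay off H3K4me3 at Ccnd1 (3797 to 4255 bp upstream, fold enrichment 4.72) and at Ccnd2 (the peaks of 4.49 and 4.44 described above). Of 12 N-MYC peaks, 10 lay on H3K4me3, against 84.5% of the whole list, and all 10 overlapped EZH2, against 5797 of all 8276 N-MYC peaks on H3K4me3. The 2 off H3K4me3, in Ccnd3 and Cdk6, overlapped p300 and H3K27ac but not EZH2, which 5.26% of all such N-MYC peaks overlapped. The N-MYC peak 3520 to 3792 bp upstream of Ccnd1, beyond these limits, was also off H3K4me3 but overlapped EZH2 and neither p300 nor H3K27ac. Of 35 p300 peaks, 22 lay on H3K4me3 (81.2% of the whole list) and 13 of these overlapped EZH2 (60.1%). The other 13 p300 peaks lay off H3K4me3, again in Ccnd3 and Cdk6, and none overlapped EZH2 (1.63%). The peaks of a gene share its locus and are not independent. At the 9 active genes the distance from the summit of the EZH2 peak at the start to the summit of the strongest overlapping H3K4me3 peak ran from 1 bp at Cdk4 and 4 bp at Cdk6 to 1343 bp at Ccne2. The distance to the N-MYC summit, at the 8 genes with such a peak, ran from 233 bp at Cdk2 to 1274 bp at Cdk6.

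Other genes of the pathway were read at the same window from lists chosen with earlier results of these data known. Of 8 pocket protein and E2F partner genes read (Rbl1, Rbl2, E2f3, E2f6, E2f7, E2f8, Tfdp1 and Tfdp2), all had EZH2, p300, H3K27ac and H3K4me3 and 7 had N-MYC as well. E2f8 was the gene without N-MYC (H3K27me3 4.70, EZH2 6.57), and E2f7, which like E2f8 encodes a repressor E2F, had SUZ12 (3.99) and H3K27me3 (16.3) beside all the active lists. Rb1, E2f4 and E2f5 had no entry in the promoter table and were not read. Of 12 later cyclin, kinase and activator genes read, 10 had EZH2, 9 H3K4me3, H3K27ac and p300, and 6 N-MYC, while Ccna2, Ccnh and Cdc25c had no entry. Ccna1, the germline A cyclin, had SUZ12 (5.59) and H3K27me3 (17.7) and no active list, and Skp2, part of the ligase that degrades the inhibitor p27, had no peak at the start read. Mnat1, a subunit of the CDK-activating kinase, had EZH2 (14.1), SUZ12 (10.8) and H3K27me3 (11.0) there. Skp2 and Mnat1 have a further annotated start 15.0 and 11.5 kb away, which carried H3K4me3 peaks of 28.7 and 26.8. Of 6 CDK inhibitor genes read, 4 had EZH2 and all active lists, while Cdkn1c had no entry. Cdkn2a, which is among those 4, and Cdkn2b, which had EZH2 (4.40) and weak H3K4me3 (5.96), both had SUZ12 and H3K27me3 (15.2 and 7.34). The H3K27ac peak of Cdkn2a was weak (3.49). A further annotated start of Cdkn2a, 12.4 kb away, had EZH2 (14.2), SUZ12 (11.0) and H3K27me3 (23.6) peaks. Cdkn1a had no peak at the start read but EZH2 (5.30), SUZ12 (5.85), H3K27me3 (12.6), H3K27ac (8.72) and H3K4me3 (10.9) peaks at a start 2.79 kb away.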

How the data were processed

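Chromatin of MYCN-driven thymic T cell lymphoma was profiled by ChIPmentation, and 7 peak lists were used, with 1 library each. The submitters' processing notes name mm10 and GRCm38, FastQC, Bowtie2, SAMtools, MACS2 and deepTools, without versions or roles; whether inputs served as controls or libraries were pooled is not given in the sources used here. The fold enrichment of each peak is a linear ratio as deposited by the authors. The authors also deposited a −log10 p-value and a −log10 q-value per peak, and the deposited whole-number score was not used. Read depth is unknown.

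A gene's start was its 5′ end in RefSeq GRCm38.p6, and a peak counted when it shared at least 1 bp with the start ± 1 kb. Strand came from the RefSeq promoter table for 7 genes and 17492 background genes, and from general knowledge for Ccnd1, Ccnd2 and Ccne2. All 10 genes are named, with pathway genes that had a SUZ12 or H3K27me3 peak or lacked H3K4me3 at the start, and the 3 genes most like each D cyclin. Members and lists were chosen with earlier results of these data known; reading further annotated starts of pathway genes was chosen after seeing the data. Exons and introns were not analysed here. The reading of peaks at starts was tested on simulated data, where all 200 planted peaks were recovered. Python 3.11.15, numpy 2.4.6, pandas 2.3.3 and matplotlib 3.10.9 were used.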

Additional observations from a re-analysis of the deposited data

How the results depend on the processing

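The 10 results (the number of genes with a peak of each list at the start, and the number of lists called at each D cyclin) were recomputed under 9 alternatives, which gave 90 values, 80 of them within 1.5 times the reported count. With a window of 0.5 kb, 1 gene had H3K27me3, since Ccnd2 lost that call and its EZH2 call. With 2.5 kb, 2 genes had SUZ12, and all 10 had H3K4me3 because Ccnd1 gained that call. With 5 kb, 3 genes had SUZ12, 4 had H3K27me3, and Ccnd1 had 5 lists in place of 3. Requiring the summit inside the window left 0 genes with SUZ12 and 1 with H3K27me3, 0 lists at Ccnd1 and 3 at Ccnd3, because summits of wide peaks lay beyond 1 kb. The same rule left H3K4me3 at 6 genes, H3K27ac and N-MYC at 7 each, p300 at 8 and EZH2 at 9. With all lists trimmed by significance to the length of the N-MYC list, 9798 peaks, 1 gene had H3K27me3 and E2f1 lost its H3K27ac call. The EZH2 call at Ccnd2 was also lost with these trimmed lists and at a q-value of at most 1e-05. Fold enrichment of at least 4, any annotated start and 10% of the window covered changed no call at the 10 genes. No paired analysis was possible because each antibody had 1 library. The depth of each library is unknown, so a missing peak sets no upper limit on occupancy.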
